A study of Homo sapiens with 18 samples.

Results

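The genes described here are 393 antisense noncoding RNA genes measured by RNA-Seq in the human breast epithelial line MCF10A-Er-Src. They are the genes listed by Entrez gene ID whose symbol ends in -AS and a number, and they were selected on their measured level, a mean across the 8 libraries of 1 FPKM or more, with 0 for a library in which a gene was not listed. FPKM, fragments per kilobase of transcript scaled to library size, is a level that can be compared between genes. The files listed 917 antisense genes by gene ID among 23604 genes in all, so 524 lay below the threshold.

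MCF10A-Er-Src cells carry the v-Src oncoprotein fused to an oestrogen receptor domain, so that tamoxifen switches v-Src on and transforms them. NT cells were left without tamoxifen, TAM cells had been transformed by it, and every group carried the same transgene in the same line. Each state was incubated for 4 h with DMSO, the solvent control, or with triptolide (TPL, labelled TPL-125nM), a compound that binds XPB, a helicase within the transcription factor TFIIH. Each of the 4 groups (NT, NT + TPL, TAM and TAM + TPL) had 2 RNA-Seq libraries from independent biological replicates and 1 list of RNA polymerase II (RNAPII) ChIP-Seq peaks.

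An antisense gene is transcribed from the strand opposite to another gene, here called its sense gene, whose symbol it carries before -AS. Such transcripts often start near the sense promoter or within the sense gene, and many are short lived because the nuclear exosome degrades them. TFIIH opens the promoter DNA and its kinase phosphorylates RNAPII, and its inhibition in general lowers new transcription, so that short-lived RNAs are usually lost first.

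Total expected counts were between 7461309 and 8349448 per library. The libraries were of poly-A RNA, so transcripts without a poly-A tail were not measured. The epithelial keratins KRT5, KRT14, KRT17, KRT18 and KRT8 had between 89.8 and 7284 FPKM in every library. Of the other epithelial markers looked up, CDH1, EPCAM and ITGA6 had between 9.56 and 138.6 FPKM. TP63 was lower, between 0.28 and 24.19 with a median of 7.025. Of the markers of other cell types, the endothelial cadherin CDH5 was at 0 and CD3E and COL3A1 reached at most 0.17 FPKM. PTPRC, PECAM1, COL1A1 and ADIPOQ had medians between 0.93 and 1.7, and COL1A1 reached 6.14 in 1 library. Whether the library and the counting kept the strand is not given in the sources used here. Where exons of a gene and its antisense partner overlap, their reads can therefore not be told apart.

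The threshold let in 62 members whose mean in the DMSO libraries was under 1 FPKM and 12 whose mean in the TPL libraries was, so their passing rested on the other treatment. A TPL change of such a member is not independent of the threshold. A total of 252 members had at least 1 FPKM in every library, 374 were listed in every library and 19 were at 0 in at least 1. Just inside the threshold were MAP9-AS1 (mean 1.01 FPKM), SLC26A4-AS1 (1.01) and KIF9-AS1 (1). Just outside it were IPO9-AS1 (0.988), PHKA2-AS1 (0.983) and EXOC3-AS1 (0.98). MAP9-AS1, with at most 8 counts in a library, was among the 13 members that did not pass the filter on low counts and were not tested.

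The promoter of CD27-AS1 is printed as that of a member called with TPL in both states. The other sequences are stretches between divergent starts of antisense and sense genes, and only these bear on the arrangement described below. These stretches come from the members that start head to head with their sense gene, that were higher with TPL in both NT and TAM cells at an adjusted p of 0.05, and whose RefSeq starts lie at most 250 bases apart, which held for 8 of 15 such members. All sequences are from RefSeq on build GRCh38.p14 and read 5′ to 3′ on the strand of the antisense gene. Each stretch stops before the first base of either transcript. Capitals mark matches on either strand to 9 motifs. They are the TATA box TATAAA, the pentamer of the CCAAT box, the GC box with the letters GGGCGG, the ETS motif spelled CGGAAG, the core of NRF1 sites, GCATGC, the E-box given as CACGTG, the CRE-like motif written TGACGT, the AP-1 motif with letters TGACTCA, and the STAT motif TTCCNGGAA, in which N is any base. The promoter of CD27-AS1, from 250 bases before its start to 50 after it, lies at chr12:6451468-6451767 on the minus strand.
CD27-AS1: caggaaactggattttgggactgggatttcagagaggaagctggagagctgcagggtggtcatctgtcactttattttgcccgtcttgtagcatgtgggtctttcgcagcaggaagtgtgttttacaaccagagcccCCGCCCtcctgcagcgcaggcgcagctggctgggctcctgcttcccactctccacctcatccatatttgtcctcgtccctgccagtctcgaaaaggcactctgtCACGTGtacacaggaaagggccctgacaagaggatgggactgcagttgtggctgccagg
The stretches lie at chr14:95157530-95157687 (DICER1-AS1), chr13:79406256-79406308 (RBM26-AS1), chr5:154445823-154445996 (SAP30L-AS1), chr5:181261144-181261211 (TRIM52-AS1), chr19:36489562-36489626 (ZNF566-AS1), chr16:2752601-2752637 (SRRM2-AS1), chr3:154121211-154121389 (ARHGEF26-AS1) and chr11:8964443-8964674 (TMEM9B-AS1). SRRM2-AS1, SAP30L-AS1 and ARHGEF26-AS1 are on the minus strand and the others on the plus strand.
DICER1-AS1: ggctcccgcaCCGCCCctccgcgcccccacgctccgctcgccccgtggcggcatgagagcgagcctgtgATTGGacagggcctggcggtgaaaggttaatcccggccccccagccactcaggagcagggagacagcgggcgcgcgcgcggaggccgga
RBM26-AS1: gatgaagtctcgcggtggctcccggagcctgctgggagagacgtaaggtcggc
SAP30L-AS1: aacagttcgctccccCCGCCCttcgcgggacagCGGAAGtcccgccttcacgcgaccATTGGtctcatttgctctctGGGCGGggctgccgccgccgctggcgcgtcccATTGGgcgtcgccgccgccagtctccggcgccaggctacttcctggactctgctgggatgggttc
TRIM52-AS1: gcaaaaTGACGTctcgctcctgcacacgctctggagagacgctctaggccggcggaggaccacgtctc
ZNF566-AS1: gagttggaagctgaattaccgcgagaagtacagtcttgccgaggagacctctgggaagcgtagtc
SRRM2-AS1: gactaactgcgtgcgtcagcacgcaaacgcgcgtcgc
ARHGEF26-AS1: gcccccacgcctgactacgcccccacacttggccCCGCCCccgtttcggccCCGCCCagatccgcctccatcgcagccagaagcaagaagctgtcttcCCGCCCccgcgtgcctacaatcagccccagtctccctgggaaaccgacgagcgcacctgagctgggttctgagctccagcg
TMEM9B-AS1: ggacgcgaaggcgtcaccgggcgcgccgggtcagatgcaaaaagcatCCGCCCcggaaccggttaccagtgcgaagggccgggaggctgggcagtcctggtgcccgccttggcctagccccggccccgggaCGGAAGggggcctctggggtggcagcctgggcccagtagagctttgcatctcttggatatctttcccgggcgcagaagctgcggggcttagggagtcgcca

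The 8 stretches were between 37 and 232 bases long. A GC box was found in 4 of them, a CCAAT box in 2, an ETS match in 2 and a TATA box in 0. In the 300-base promoters of RefSeq, which held 291 of the 393 members, a GC box was found for 49.1% of the members and 44.6% of all 27305 genes with a promoter. Members that start head to head with their sense gene had one in 72.1% of 43 promoters, a CGGAAG match in 44.2% against 19.9% of all genes, and a TATAAA match in 0% against 12%. Their median GC content was 67.7%, against 61.7% over the members and 58.3% over all genes. The 11986 genes that were tested in RNA-Seq and have a promoter entry were closer to them, with a GC box in 66.5%, CGGAAG in 30.8%, TATAAA in 6.5% and a median GC content of 64.7%. These matches are letters in a window and say nothing of binding.

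The level of the members ranged from the threshold to far above it. The mean was between 1 and 2 FPKM for 124 members, between 2 and 10 for 203 and at least 10 for 66. RXYLT1-AS1 was the highest, with 624 and 758 FPKM (NT), 1254 and 809 (NT + TPL), 874 and 796 (TAM) and 1189 and 1005 (TAM + TPL). Among those that followed were MIF-AS1 (mean 196 FPKM), UGDH-AS1 (192), VIM-AS1 (177), SLC44A3-AS1 (173), CBR3-AS1 (99), MYL12-AS1 (86), DDX59-AS1 (58.4) and PABPC4-AS1 (49.1).

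Part of the exon bases of some abundant members lies opposite other exons, and for 2 of them most do. In GENCODE release 44 on build 37, 82% of the exon bases of RXYLT1-AS1, 79.4% of those of PABPC4-AS1, 46.5% of those of MIF-AS1 and 30.9% of those of VIM-AS1 lay opposite annotated exons. Some sense partners were more abundant still. MIF, a cytokine, had 983 and 741 FPKM in NT cells, and VIM, the intermediate filament vimentin, had 379 and 392. By contrast SLC44A3-AS1 had no exon base opposite an exon, and its sense gene SLC44A3 stood at 3.44 and 4.12 FPKM in NT cells against 272 and 212 for the antisense gene.

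Over the 367 members placed on build 37 by symbol, the median share of exon bases opposite an annotated exon was 9.09%. It was 0 for 65 members and at least 50% for 37. The exons of 275 members overlapped those of their sense gene, 72 overlapped its span but not its exons, 14 lay within 5 kb of it, and 1 lay further off. The sense gene of 5 members was not matched, and 26 antisense genes were not placed, HIF1A-AS2 among them. A start lay within 1000 bases of a sense start for 189 members, and 56 started head to head, that is, with the main antisense start at most 1000 bases upstream of the main sense start and on the other strand.

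With TPL the members took a larger share of all counts in both states. They made up 0.546% and 0.523% of the counts (NT), 0.698% and 0.801% (NT + TPL), 0.54% and 0.531% (TAM), and 0.787% and 0.714% (TAM + TPL). All 4 TPL libraries lay above all 4 DMSO libraries. The median FPKM of the members was 2.88 and 2.45 (NT), 3.92 and 4.05 (NT + TPL), 2.35 and 2.31 (TAM), and 4.09 and 3.7 (TAM + TPL), again without overlap. These are shares of a bulk library, in which fewer cells of a type and less RNA per cell cannot be told apart, and the members were selected on these libraries, so no test was run on them.

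**Figure D1:**
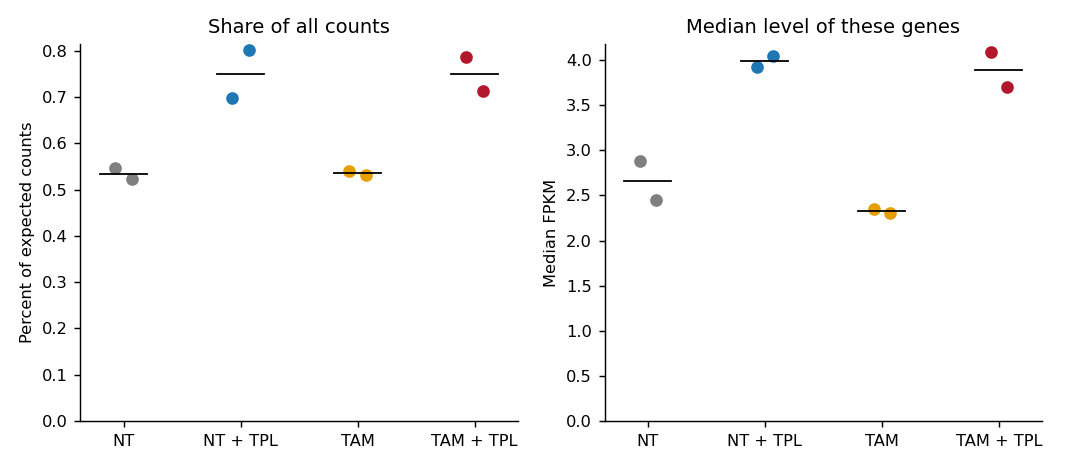
Share of all expected counts held by the 393 antisense genes, in percent (left), and their median FPKM (right), for each of 8 RNA-Seq libraries, with dots for libraries and lines for the mean of the 2 libraries of a group. The TPL libraries lie between 0.698% and 0.801% and the DMSO libraries between 0.523% and 0.546%.

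In NT cells, antisense genes moved up with TPL more often than down. Of 380 tested, 290 had a log2 fold change above 0 and the median was 0.63, against 0.09 over all 16948 genes tested. At an adjusted p of 0.05 (edgeR quasi-likelihood test, Benjamini-Hochberg over all genes), 85 rose and 23 fell, which is 22.4% and 6.05% of them. Over all genes 17.2% rose and 19.8% fell. A stricter call, which asks for an adjusted p no higher than 0.001 and a change of 1.2 or more on the log2 scale, was met by 2 rises and 1 fall, 0.526% and 0.263% of the members. Over all genes 1.22% were called higher and 2.71% called lower, so strict rises and falls were both below the shares of all genes. The count at 0.05 depended on single libraries, and was 34 rises and 8 falls without NT replicate 2, 45 and 15 without NT replicate 1, and 52 and 14 without NT + TPL replicate 2.

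In TAM cells rises were again more frequent than falls, and 296 of 380 had a change above 0, with a median of 0.70 against 0.05 over all genes. A total of 94 rose and 16 fell at an adjusted p of 0.05, 24.7% and 4.21% of the members, against 14.3% and 18.6% of all genes. Strict calls numbered 4 rises and 1 fall, 1.05% and 0.263%, against 0.844% and 2.04% of all genes. The count at 0.05 fell to 36 rises and 8 falls without TAM replicate 1, 30 and 8 without TAM replicate 2, 27 and 6 without TAM + TPL replicate 1, and 46 and 9 without TAM + TPL replicate 2. Over both states, all 4 TPL libraries lay above all 4 DMSO libraries in 145 members (38.2%) and below them in 26 (6.84%), against 20.4% and 21.9% of all genes tested.

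The counts moved with the scaling of the libraries. Scaling to the upper quartile moved the median change of all genes to 0.31 in NT and 0.29 in TAM cells, and scaling to equal GAPDH moved it to -0.26 and -0.07. With the upper quartile 126 members rose and 16 fell in NT cells and 129 rose and 11 fell in TAM cells, while with GAPDH 42 rose and 30 fell in NT and 62 rose and 16 fell in TAM cells. A scaling moves all genes of a library alike, so the distance between the median of the members and that of all genes, 0.54 in NT and 0.65 in TAM cells, is nearly fixed under any scaling and is no sign of stability.

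**Figure D2:**
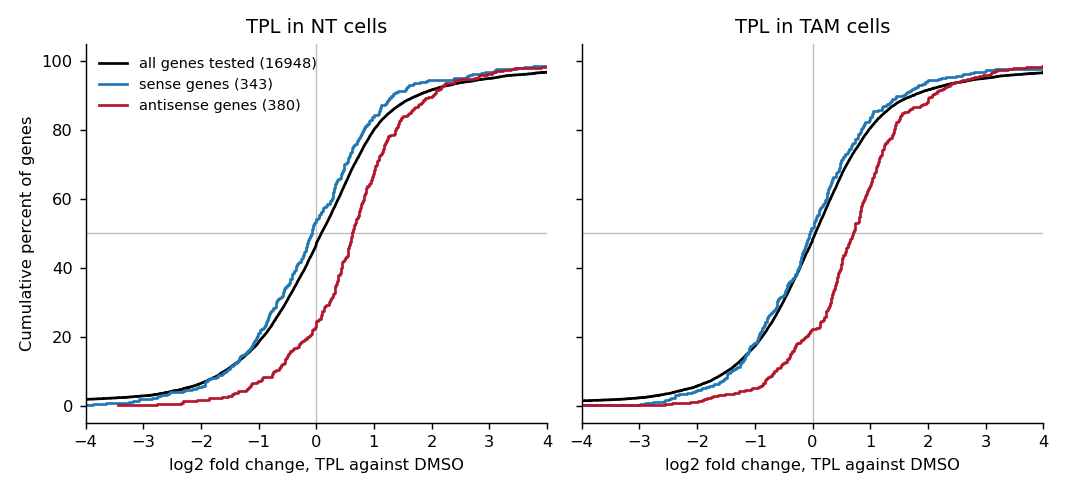
Cumulative percent of genes (y axis) by log2 fold change of TPL against DMSO (x axis, shown from -4 to 4) in NT cells (left) and TAM cells (right), for all genes tested, the sense genes and the antisense genes. The antisense curve lies to the right, with medians of 0.63 and 0.70, while the sense genes have medians of -0.08 and -0.04.

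The changes of the members in the 2 states, which share no library, were alike in direction for 340 of 380 members (89.5%), against 81.2% of all genes tested. Pearson's r across members was 0.78 and Spearman's rho 0.78, against 0.59 and 0.75 across all genes tested, where the genes of a library share its depth and scaling. At an adjusted p of 0.05, 61 members rose in both states, 11 fell in both and 0 moved in opposite directions, which is 16.1%, 2.89% and 0%, against 9.86%, 14.2% and 0.148% of all genes.

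The medians of the members were above those of all genes of the same level. Among members of 1 to 2 FPKM the medians were 0.79 in NT and 0.92 in TAM cells, against 0.48 and 0.47 for all genes of that level. Among members of 2 to 10 FPKM they were 0.59 and 0.65 against -0.01 and -0.01, and among those of at least 10 FPKM 0.53 and 0.45 against -0.08 and -0.16. These members include those that reached the threshold through 1 treatment alone, more often through TPL. A count without them, chosen after seeing the data, kept the 314 tested members with a mean of at least 1 FPKM both with DMSO and with TPL. Their medians were 0.56 in NT and 0.57 in TAM cells, against -0.02 and -0.07 over the 12625 genes that met the same rule. In NT cells 60 rose and 20 fell (19.1% and 6.37%, against 16.3% and 23.3% of those genes), and in TAM cells 68 rose and 13 fell (21.7% and 4.14%, against 12.1% and 22.2%). At 1 to 2 FPKM 53 of them were left, with medians of 0.54 and 0.57 against 0.23 and 0.19, and 2 and 4 rose, 3.77% and 7.55% against 4.1% and 4.51%.

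The strict calls with TPL in NT cells were CD27-AS1, RUFY1-AS1 and HIF1A-AS2. All were at an adjusted p of 0.05 or less in each refit without 1 library, although 0 to 2 then met the strict threshold. CD27-AS1 lies opposite CD27, which encodes a co-stimulatory receptor of the TNF receptor family on lymphocytes (chr12:6548167-6560773, minus strand, build 37). It had 2.54 and 2.84 FPKM (NT), 33.4 and 46.8 (NT + TPL), 2.33 and 3.31 (TAM) and 31.7 and 28.9 (TAM + TPL). The TPL libraries lay far above the others in both states, with a log2 fold change of 3.89 with an SE of 0.27, adjusted p = 0.000274 in NT cells and a log2 fold change of 3.38 with an SE of 0.27, adjusted p = 0.00042 in TAM cells. CD27 itself had 0.09 and 0.09 FPKM (NT), 12.2 and 10.4 (NT + TPL), 0.46 and 0 (TAM) and 14.6 and 10.8 (TAM + TPL), and rose as well (adjusted p = 0.00234 and 0.00325), from a few reads without TPL. Of the exon bases of CD27-AS1, 16.3% lay opposite exons, so part of the reads cannot be told apart from those of CD27.

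RUFY1-AS1 lies within RUFY1, a gene for an endosomal trafficking protein (chr5:179022905-179030742, minus strand, build 37). It went from 0.51 and 0.41 FPKM in NT cells to 18.2 and 18.2 with TPL, and from 0.31 and 0.75 in TAM cells to 28.3 and 20. Every DMSO library was under 1 FPKM, so RUFY1-AS1 passed the threshold through its TPL libraries. Its rise was the largest strict call and is not independent of that threshold. The fit gave a log2 fold change of 5.25 with an SE of 0.38, adjusted p = 0.00032 in NT cells and a log2 fold change of 5.47 with an SE of 0.38, adjusted p = 0.00034 in TAM cells. The sense gene moved the other way, with 32.6 and 28.1 FPKM (NT), 18 and 15.4 (NT + TPL), 35.8 and 34.1 (TAM) and 15.8 and 15.2 (TAM + TPL) (log2 fold change of -0.87 with an SE of 0.14, adjusted p = 0.00402 for NT cells, log2 fold change of -1.23 with an SE of 0.14, adjusted p = 0.00129 for TAM cells). No antisense start of RUFY1-AS1 lay within a listed RNAPII peak without TPL in either state, and one did with TPL in both.

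Further strict calls in TAM cells were C10orf95-AS1 and SH3BP5-AS1. C10orf95-AS1 had 4.05 and 3.18 FPKM (NT), 11.6 and 8.96 (NT + TPL), 4.74 and 5.02 (TAM) and 51 and 34.6 (TAM + TPL). It was higher with TPL in both states, by 1.56 on the log2 scale in NT cells (adjusted p = 0.00547) and by 3.20 in TAM cells (adjusted p = 0.000526). SH3BP5-AS1, opposite the gene of an SH3-domain binding protein, had 3.07 and 2.73 FPKM (NT), 5.66 and 4.08 (NT + TPL), 1.86 and 1.65 (TAM) and 8.13 and 7.14 (TAM + TPL). Its change was 0.74 in NT cells (adjusted p = 0.0256) and 2.07 in TAM cells (adjusted p = 0.000799), while SH3BP5 gave -0.05 and 0.83 and passed in neither.

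Other large rises started from very few reads. Those of members with a DMSO mean under 1 FPKM are not independent of the threshold, which such members passed through their TPL libraries. DICER1-AS1, head to head with the gene of the microRNA-processing enzyme DICER1, had 0.37 and 0.15 FPKM (NT), 6.69 and 7.41 (NT + TPL), 0.89 and 1.04 (TAM) and 5.17 and 5.39 (TAM + TPL). Its libraries did not overlap between treatments, and the fit gave a log2 fold change of 4.83 with an SE of 0.54, adjusted p = 0.00105 in NT cells and a log2 fold change of 2.39 with an SE of 0.46, adjusted p = 0.00875 in TAM cells. Since the NT libraries held few reads, the ratio of counts with TPL to those without is given with its interval for counting error only, and was 30.7 (95% interval 10.2 to 152) in NT cells. LHFPL3-AS2 had 0 in both NT libraries and 1.23 and 1.93 FPKM in NT + TPL, which is at least 8.18-fold higher against 3 counts per library (adjusted p = 0.0138). SEPTIN4-AS1 had 0 in both TAM libraries and 2.97 and 1.75 FPKM in TAM + TPL, at least 4-fold higher on the same floor (adjusted p = 0.0138). SLC25A30-AS1 had 0.18 and 0 FPKM (NT), 1.15 and 3.7 (NT + TPL), 0.35 and 0 (TAM) and 4.53 and 2.89 (TAM + TPL), with a ratio of counts of 20.1 (95% interval 5.21 to 172) in TAM cells (adjusted p = 0.0455).

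THUMPD3-AS1 was listed under its gene ID and under 2 RefSeq accessions of the same symbol. Its gene ID entry had 0 FPKM in both NT libraries and 1.96 and 1.63 in NT + TPL, at least 9.04-fold higher (adjusted p = 0.00908). The larger accession entry, which enters no test of the members, had 5.88 and 4.19 FPKM (NT), 23.3 and 19.7 (NT + TPL), 8.25 and 10.2 (TAM) and 21.2 and 17 (TAM + TPL). The reads of this gene were thus divided between entries, and the fold of the gene ID entry describes that entry alone.

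The falls with TPL were fewer, and for most of them the sense gene fell too. HIF1A-AS2, opposite the gene of the hypoxia-inducible factor subunit HIF1A, had 18.3 and 20.8 FPKM (NT), 6.91 and 5.72 (NT + TPL), 60.2 and 72.2 (TAM) and 14.4 and 16.8 (TAM + TPL). It fell by 1.64 on the log2 scale in NT cells (adjusted p = 0.000942) and by 2.13 in TAM cells (adjusted p = 0.00042), the only strict calls among the falls. HIF1A had 42.5 and 65.2 FPKM (NT), 18.9 and 9.83 (NT + TPL), 175 and 180.2 (TAM) and 36.3 and 37.1 (TAM + TPL) and fell as well, by 1.93 and 2.32 (adjusted p = 0.0038 and 0.00215). HIF1A-AS1, which starts close to the HIF1A start, had 2.16 and 2.36 FPKM in NT and 0.41 and 0.21 in NT + TPL, a ratio of counts of 0.138 (95% interval 0.0265 to 0.457), adjusted p = 0.0267. In TAM cells it had 4.57 and 2.1 without TPL and 2.55 and 2.54 with it, which overlap (adjusted p = 0.613).

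PAXIP1-AS2, opposite the gene of the BRCT-domain adaptor PAXIP1, had 4.11 and 4.19 FPKM (NT), 1.07 and 0.74 (NT + TPL), 4.71 and 4.6 (TAM) and 1.06 and 1.58 (TAM + TPL). All TPL libraries lay below all DMSO libraries (log2 fold change of -2.30 with an SE of 0.40, adjusted p = 0.00566 in NT cells, log2 fold change of -1.84 with an SE of 0.39, adjusted p = 0.0129 in TAM cells). PAXIP1 fell by 3.24 and 2.49 (adjusted p = 0.000197 and 0.000367). PRKCQ-AS1 had 2.17 and 1.67 FPKM (NT), 0.46 and 0.3 (NT + TPL), 2.03 and 1.96 (TAM) and 0.55 and 0.7 (TAM + TPL) and was the 1 member head to head with its sense gene that fell, in both states (log2 fold change of -2.31 with an SE of 0.46, adjusted p = 0.00908 in NT and log2 fold change of -1.72 with an SE of 0.44, adjusted p = 0.0247 in TAM cells). CEBPB-AS1, beside the gene of the transcription factor CEBPB, had 10.7 and 12.3 FPKM (NT), 4.91 and 7.26 (NT + TPL), 21.8 and 19.1 (TAM) and 5.01 and 5.65 (TAM + TPL), with a log2 fold change of -1.99 with an SE of 0.24, adjusted p = 0.00146 in TAM cells, and CEBPB fell by 2.76 there (adjusted p = 0.000827). HOXB-AS3, within the HOXB cluster, had 13.7 and 11.8 FPKM in TAM and 1.08 and 0.29 in TAM + TPL, a ratio of counts of 0.0464 (95% interval 0.0124 to 0.123), adjusted p = 0.00907. In each of these the TPL and DMSO libraries did not overlap in that state.

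Further falls named by size were BCAR3-AS1 in NT cells, MAX-AS1 in TAM cells and FAM83A-AS1 in TAM cells. BCAR3-AS1 went from 2.54 and 3.97 to 0.5 and 0.76 FPKM (-2.34 on the log2 scale, adjusted p = 0.0124). MAX-AS1 went from 2.87 and 2.19 to 0.18 and 0.75 (-2.55, adjusted p = 0.0494). FAM83A-AS1 went from 14 and 16 to 2.64 and 3.06 (-2.44, adjusted p = 0.00325). The sense gene of each fell in the same state, BCAR3 by 1.53, MAX by 1.79 and FAM83A by 1.93 (adjusted p = 0.00182, 0.00349 and 0.00249).

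The calls of the members named by size or level rested on few libraries. Of 27 such calls at an adjusted p of 0.05 with TPL in NT cells, 9 held in each of 8 refits that left out 1 library, among them those of C10orf95-AS1, CD27-AS1, DICER1-AS1, HIF1A-AS2, PAXIP1-AS2, PRKCQ-AS1, RUFY1-AS1 and THUMPD3-AS1. In TAM cells 9 of 23 did, among them those of C10orf95-AS1, CD27-AS1, CEBPB-AS1, FAM83A-AS1, HIF1A-AS2, RUFY1-AS1, SH3BP5-AS1 and SLC26A4-AS1.

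**Figure D3:**
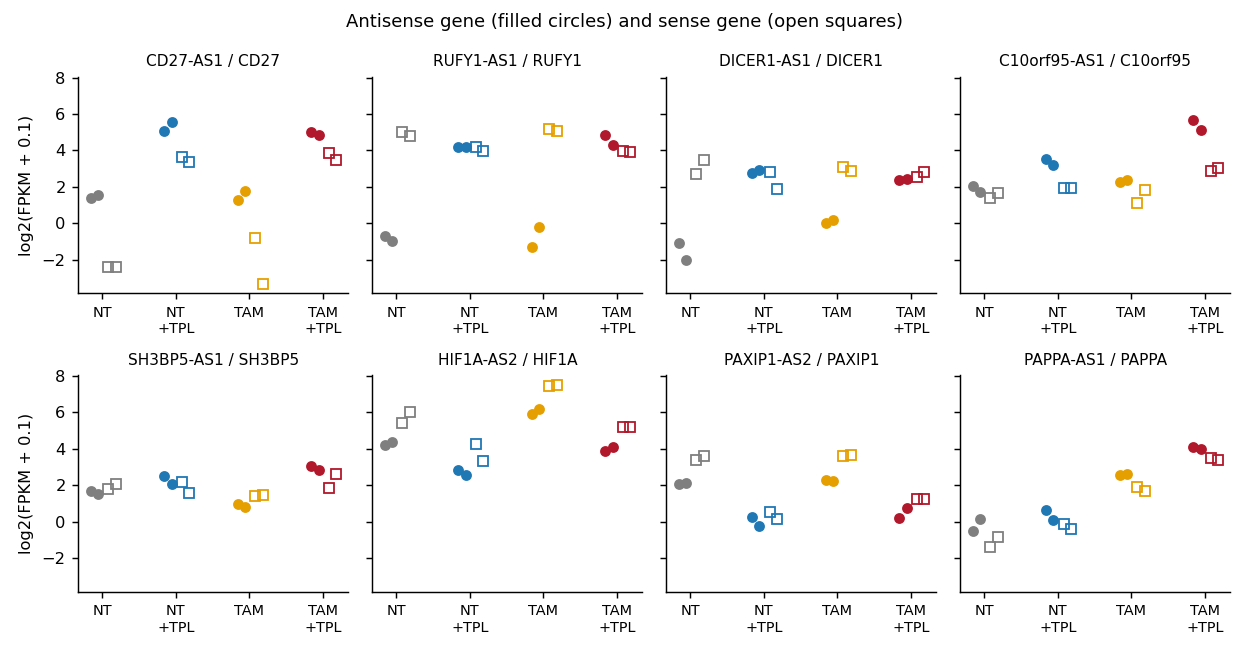
Levels of 8 antisense genes (filled circles) and their sense genes (open squares) as log2(FPKM + 0.1) on the y axis, with 1 symbol per library and the 4 groups on the x axis. RUFY1-AS1 rises with TPL in both states while RUFY1 falls, whereas HIF1A-AS2 and PAXIP1-AS2 fall together with HIF1A and PAXIP1.

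Among the 10 most abundant members, 3 rose in NT cells and 3 in TAM cells. Of the members of at least 10 FPKM, 34.85% and 28.79% rose, against 21.04% and 12.35% of all genes of that level. UGDH-AS1, opposite the gene of UDP-glucose dehydrogenase, had 132 and 115 FPKM (NT), 194 and 369 (NT + TPL), 123 and 113 (TAM) and 243 and 243 (TAM + TPL), and rose by 1.19 on the log2 scale in NT cells (adjusted p = 0.0213), and in TAM cells as well (adjusted p = 0.0415). SLC44A3-AS1 fell in NT cells, from 272 and 212 to 108 and 68.5 FPKM (log2 fold change of -1.46 with an SE of 0.30, adjusted p = 0.0108). CBR3-AS1 rose in NT cells by 1.08 (adjusted p = 0.0163), and PABPC4-AS1 rose in TAM cells by 0.92 (adjusted p = 0.0164). RXYLT1-AS1, MIF-AS1, VIM-AS1, MYL12-AS1 and DDX59-AS1 passed in neither state.

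The study had picked 9 antisense genes on these samples, of which 6 are members, so their direction is not independent evidence. At an adjusted p of 0.05, 5 of these 6 rose in NT cells and 3 in TAM cells. CD27-AS1 and DICER1-AS1 are given above. ZNF213-AS1 had 0.33 and 0.55 FPKM (NT), 6.18 and 3.62 (NT + TPL), 0.75 and 0 (TAM) and 9.57 and 6.04 (TAM + TPL) and rose in both states (adjusted p = 0.0383 and 0.022). PYCARD-AS1, opposite the gene of the inflammasome adaptor PYCARD, had 0 and 0.45 FPKM (NT), 1.43 and 3.5 (NT + TPL), 0.44 and 0.44 (TAM) and 4.39 and 3.7 (TAM + TPL), with adjusted p = 0.0461 in NT and 0.0524 in TAM cells. ZNF674-AS1 rose by 1.12 in NT cells (adjusted p = 0.0236) and gave 0.74 (adjusted p = 0.0923) in TAM cells. MAPKAPK5-AS1 gave 0.56 (adjusted p = 0.136) and 0.69 (adjusted p = 0.0847), with TPL libraries above the DMSO libraries in both states.

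The sense genes as a group did not share the upward shift. Of 368 sense genes listed, 343 were tested. In NT cells 69 rose and 90 fell, 20.1% and 26.2% of them against 17.2% and 19.8% of all genes, with a median log2 fold change of -0.08. In TAM cells 56 rose and 82 fell, 16.3% and 23.9% against 14.3% and 18.6% of all genes, with a median of -0.04. Rises and falls were thus both somewhat more frequent than over all genes. Among 333 members tested together with their sense gene, the member had the higher log2 fold change in 228 pairs in NT cells and 243 in TAM cells. Pearson's r between the changes of the partners was 0.29 and 0.36 across pairs, and Spearman's rho 0.22 and 0.28, which include any reads shared by overlapping exons.

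When an antisense gene rose, the sense gene most often did not pass in either direction, which also held for the sense genes in general. Over all 343 sense genes tested, 20.1% rose and 26.2% fell in NT cells, and 16.3% rose and 23.9% fell in TAM cells. Of 79 members that rose in NT cells in these pairs, the sense gene rose in 21, fell in 14 and passed in neither direction in 44. In TAM cells the counts were 22, 15 and 50 of 87. When an antisense gene fell, the sense gene fell in 12 of 20 pairs in NT cells and 9 of 14 in TAM cells, and rose in 2 and 0.

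**Figure D4:**
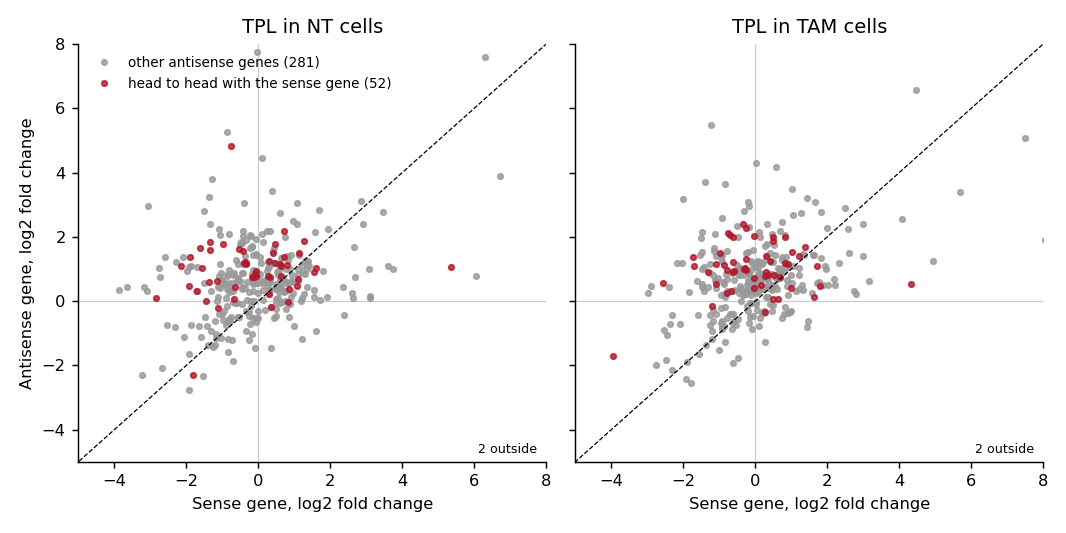
Log2 fold change with TPL of each antisense gene (y axis) against that of its sense gene (x axis) for 333 pairs, in NT cells (left) and TAM cells (right), with head-to-head pairs in red and the line of equal change dashed; 2 pairs in each panel lie outside the axes. The antisense gene lies above the line in 228 pairs (NT) and 243 pairs (TAM).

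The ratio of antisense to sense level was then compared per library, by limma on the difference of log2 CPM (counts scaled to library size) across 3635 pairs of neighbouring genes on opposite strands. In member pairs the ratio was antisense over sense, and these pairs are among the 3635. A pair without an antisense symbol was put in alphabetical order, so the sign of its change is arbitrary. The shares and the median over all pairs are thus no baseline for the direction of an antisense to sense ratio. With TPL the ratio rose in 95 of 333 member pairs in NT cells and fell in 22 at an adjusted p of 0.05, which is 28.5% and 6.61%, against 20% and 16% of all pairs. In TAM cells it rose in 95 and fell in 19, 28.5% and 5.71%, against 19.1% and 15.8% of all pairs. The median change of the ratio was 0.54 and 0.55 on the log2 scale in member pairs, against 0.09 and 0.09 over all pairs. The member pairs include members that passed the FPKM threshold through their TPL libraries, and a rise of their ratio with TPL is not independent of it. A count of ratios without these members is not given here.

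The largest rise of the ratio was that of RUFY1-AS1 over RUFY1, by 5.81 ± 0.39 (SE), adjusted p = 0.000534, in NT cells and 6.48 ± 0.39 (SE), adjusted p = 0.000599, in TAM cells. Next were FRMD6-AS1 over FRMD6 in NT cells, by 5.62 ± 0.59 (SE), adjusted p = 0.00142, and EGFLAM-AS4 over EGFLAM in TAM cells, by 4.83 ± 0.48 (SE), adjusted p = 0.00153, both chosen after their values were seen. FRMD6-AS1 had 0.47 and 0.51 FPKM (NT) and 2.73 and 4.98 (NT + TPL), while FRMD6 had 7.79 and 12.5 and then 1.14 and 1.34. EGFLAM-AS4 had 0.89 and 0.5 FPKM (TAM) and 8.46 and 5.23 (TAM + TPL), while EGFLAM had 3.56 and 4.09 and then 0.89 and 1.01. In both pairs the partners moved apart, and the antisense level was below the sense level without TPL and above it with TPL. DICER1-AS1 over DICER1 rose by 4.55 ± 0.52 (SE), adjusted p = 0.00173, in NT cells. DICER1 itself had 6.52 and 11.1 FPKM (NT), 7.03 and 3.54 (NT + TPL), 8.42 and 7.32 (TAM) and 5.68 and 6.9 (TAM + TPL), with overlap between treatments. PEA15-AS1 over PEA15, the gene of a death-effector-domain phosphoprotein, was chosen after its values were seen, and rose by 4.06 ± 0.72 (SE), adjusted p = 0.00603, in NT cells and 4.27 ± 0.72 (SE), adjusted p = 0.0061, in TAM cells. Its log2 ratio was -9.17 and -8.11 in the NT libraries. RUFY1-AS1, FRMD6-AS1 (NT), EGFLAM-AS4 (TAM) and DICER1-AS1 (NT) were under 1 FPKM without TPL. Ratios from so few reads depend on the prior count. The rise of a member that passed the threshold through its TPL libraries is not independent of it. In the other direction FAM222A-AS1 over FAM222A, also chosen after its values were seen, fell in both states, with changes of -5.01 ± 0.33 (SE), adjusted p = 0.000521, in NT cells and -3.82 ± 0.33 (SE), adjusted p = 0.000984, in TAM cells. FAM222A-AS1 had 1.88 and 1.1 FPKM (NT), 2.98 and 2.18 (NT + TPL), 0.61 and 0.92 (TAM) and 2.21 and 1.56 (TAM + TPL). FAM222A had 0.35 and 0.31 FPKM (NT), 28.2 and 15.8 (NT + TPL), 0.78 and 0.71 (TAM) and 26.2 and 21.5 (TAM + TPL), so the fall of the ratio came with a rise of the sense gene.

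In 7 of the 333 pairs the antisense gene rose and the sense gene fell in both states at an adjusted p of 0.05. Within 1 state this held for 14 pairs in NT and 15 in TAM cells, while both partners rose in 21 and 22. The share of such pairs over all pairs of neighbouring genes is not given here. The 7 antisense genes were RUFY1-AS1, GABPB1-AS1, SAP30L-AS1, SPEN-AS1, RBM26-AS1, KMT2E-AS1 and PCBP1-AS1, listed after their values were seen. Of these, 3 start head to head with the sense gene. SPEN-AS1 had 2.09 and 1.91 FPKM (NT), 5.19 and 3.2 (NT + TPL), 1.75 and 1.6 (TAM) and 5.09 and 4.37 (TAM + TPL), whereas SPEN, a transcriptional corepressor, had 18 and 23.9 FPKM (NT), 4.52 and 1.77 (NT + TPL), 20.8 and 15.8 (TAM) and 6.81 and 6.24 (TAM + TPL). RBM26-AS1 had 0.87 and 1.22 FPKM (NT), 2.45 and 2.11 (NT + TPL), 1.2 and 1.24 (TAM) and 3.44 and 3.2 (TAM + TPL), whereas RBM26, an RNA-binding protein gene, had 12.6 and 17.6 FPKM (NT), 3.56 and 3.27 (NT + TPL), 13.3 and 12.6 (TAM) and 3.67 and 4.38 (TAM + TPL). In both pairs the sense level lay far above the antisense level without TPL and near it with TPL. GABPB1-AS1 had 3.83 and 2.47 FPKM (NT), 10.9 and 8.14 (NT + TPL), 2.35 and 1.62 (TAM) and 9.01 and 8.02 (TAM + TPL), and GABPB1, for a subunit of the ETS factor GABP, had 13.8 and 16.1 FPKM (NT), 7.25 and 4.41 (NT + TPL), 7.36 and 8.48 (TAM) and 5.9 and 5.5 (TAM + TPL). With TPL the antisense level lay above the sense level in all 4 libraries, and without TPL it lay below it in all 4.

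PCBP1-AS1 had 0.17 and 0.68 FPKM (NT), 2.3 and 2.09 (NT + TPL), 0.59 and 0.62 (TAM) and 3.24 and 2.33 (TAM + TPL), while PCBP1, for a poly-C binding protein, had 141 and 159 FPKM (NT), 70.4 and 49.3 (NT + TPL), 182 and 183 (TAM) and 63.5 and 71.2 (TAM + TPL). KMT2E-AS1 had 0.52 and 0.66 FPKM (NT), 2.72 and 1.38 (NT + TPL), 0.72 and 0.72 (TAM) and 5.08 and 2.43 (TAM + TPL), and KMT2E had 11.2 and 13.5 FPKM (NT), 8.77 and 8.48 (NT + TPL), 12.3 and 12.8 (TAM) and 9.46 and 9.05 (TAM + TPL). For these pairs the antisense level stayed below the sense level in every library. Both antisense genes were under 1 FPKM in every DMSO library and passed the threshold through their TPL libraries.

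The arrangement of the partners went with the size of the TPL change. The 52 head-to-head members tested had medians of 1.02 in NT and 0.98 in TAM cells, and 24 and 19 of them rose (46.2% and 36.5%) while 1 fell in each (1.92%). The 297 other members placed beside a matched sense gene had medians of 0.56 and 0.62, with 54 and 67 rises (18.2% and 22.6%) and 20 and 11 falls (6.73% and 3.7%). Over all genes 17.2% and 14.3% rose and 19.8% and 18.6% fell, so in NT cells the rises outside the head-to-head members were near the share of all genes. This difference was not tested, since members are not replicates of a condition. In 15 head-to-head members the rise passed in both states.

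The head-to-head pairs whose stretches are printed above show the range. SAP30L-AS1 had 1.7 and 1.94 FPKM (NT), 5.19 and 7.92 (NT + TPL), 1.87 and 2.57 (TAM) and 6.48 and 6.5 (TAM + TPL), and SAP30L, for a subunit of a histone deacetylase complex, had 4.54 and 4.74 FPKM (NT), 2.13 and 1.54 (NT + TPL), 3.24 and 3.42 (TAM) and 1.47 and 2.02 (TAM + TPL). TRIM52-AS1 had 8.93 and 7.43 FPKM (NT), 18.1 and 29.7 (NT + TPL), 4.56 and 7.01 (TAM) and 14.1 and 15.1 (TAM + TPL), and TRIM52 rose too, with 2.31 and 2.88 FPKM (NT), 6.52 and 4.89 (NT + TPL), 2.93 and 2.61 (TAM) and 9.46 and 9.3 (TAM + TPL). ZNF566-AS1 had 24.5 and 14.3 FPKM (NT), 47.5 and 45.3 (NT + TPL), 12.8 and 10.5 (TAM) and 51.1 and 36.2 (TAM + TPL), while ZNF566 gave 0.30 (adjusted p = 0.435) in NT and 0.50 (adjusted p = 0.212) in TAM cells. Sense genes of divergent pairs thus fell, rose or passed in neither direction while the antisense gene rose.

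SRRM2-AS1 had 2.92 and 1.58 FPKM (NT), 7.28 and 6.73 (NT + TPL), 1.2 and 2.02 (TAM) and 7.96 and 5.92 (TAM + TPL), beside SRRM2, for a spliceosome scaffold protein, at 101 to 187 FPKM. ARHGEF26-AS1 had 21.2 and 17.3 FPKM (NT), 28.5 and 40.2 (NT + TPL), 17.6 and 16.9 (TAM) and 37.4 and 31.9 (TAM + TPL), beside ARHGEF26 at under 1 FPKM in every library. TMEM9B-AS1 had 0.71 and 0.99 FPKM (NT), 2.65 and 2.55 (NT + TPL), 1.52 and 0.81 (TAM) and 4.38 and 5.2 (TAM + TPL). Each of these 3 rose in both states, with log2 fold changes between 0.84 and 2.02.

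The median change was smaller in both classes with 25% or more of the antisense exon bases opposite other exons than in those with less. Members with no such base had medians of 0.86 in NT and 0.95 in TAM cells (63 tested). Those with under 25% had 0.62 and 0.79 (203), those with 25 to 50% had 0.37 and 0.38 (52) and those with 50% or more had 0.40 and 0.34 (36). The part that reads from opposite exons had in these values was not tested.

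**Figure D5:**
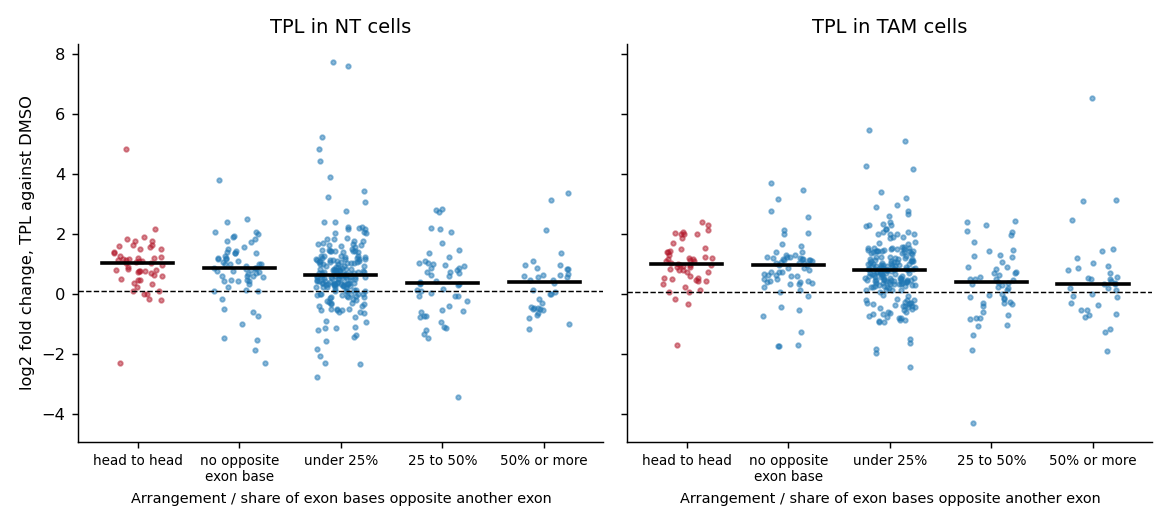
Log2 fold change with TPL (y axis) of single antisense genes (dots) in NT cells (left) and TAM cells (right), for head-to-head members (red) and for members by the share of exon bases opposite annotated exons (blue); a gene can be in both. Thick lines are medians, 1.02 and 0.98 for head-to-head members, 0.37 and 0.38 for those with 25 to 50%, and 0.40 and 0.34 for those with 50% or more. The dashed line is the median of all genes tested.

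RNAPII peaks at antisense starts were listed less often with TPL, as they were for genes in general. Of 367 members placed on build 37, 189 had a start within a peak of the NT list, 138 of the NT + TPL list, 168 of the TAM list and 143 of the TAM + TPL list, which is 51.5%, 37.6%, 45.8% and 39%. Over 14925 genes tested and placed, the shares were 67.8%, 54.5%, 61.7% and 53.5%. There is 1 list per condition with no score or read count, whose peak names carry the number of replicate 1, and whether it came from that replicate or from pooled libraries is not given in the sources used here. The TAM list carries another threshold in its peak names, and no replicate check was possible. The member and its sense gene shared a peak in 110 of 362 pairs (NT), 77 (NT + TPL), 89 (TAM) and 73 (TAM + TPL), and there RNAPII at the antisense start cannot be told apart from that of the sense promoter.

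Members that kept a listed peak had larger RNA changes than those that lost it. In NT cells the 127 members tested with a peak in both lists had a median of 0.83, the 56 with a peak only without TPL had 0.38, and the 165 with no peak had 0.55. In TAM cells the values were 0.89 (128), 0.40 (35) and 0.56 (180). A peak was listed only with TPL for 7 members in NT and 11 in TAM cells, with medians of 1.04 (6 tested) and 1.10 (11 tested), the highest of the 4 classes in either state. RUFY1-AS1 and PYCARD-AS1 were in this class in both states, and CD27-AS1, DICER1-AS1, ZNF213-AS1 and C10orf95-AS1 had a peak in all 4 lists. These medians are descriptions of lists without replicates and were not tested. The same split over all genes is not given here, and the part that peaks shared with the sense gene had was not tested.

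Transformation moved few antisense genes. The DMSO libraries compared here are also the controls of the TPL comparisons above. In TAM against NT cells with DMSO, 8 members were higher and 2 lower at an adjusted p of 0.05, 2.11% and 0.526% of those tested, against 3.46% and 3.39% of all genes. With libraries scaled to equal GAPDH, which moved the median of all genes to -0.50, 6 members were higher and 21 lower. By edgeR 0 members met the strict call, against 0.655% of all genes, while 47 had an unadjusted p under 0.05 and DESeq2 gave 5 strict calls. The median log2 fold change was -0.15 over the members and -0.03 over all genes. With TPL in both states, 6 were higher and 3 lower in TAM cells (1.58% and 0.789%, against 2.83% and 4.21% of all genes) and 1 met the strict call, against 0.596% of all genes.

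PAPPA-AS1 was that strict call. It lies within PAPPA, the gene of a metalloproteinase that cleaves insulin-like growth factor binding proteins (chr9:119160436-119162885, minus strand, build 37), and all of its exon bases are opposite annotated exons. It had 0.6 and 0.99 FPKM (NT), 1.47 and 0.96 (NT + TPL), 5.88 and 5.99 (TAM) and 16.9 and 16 (TAM + TPL). TAM cells were above NT cells in every library, by 2.91 on the log2 scale with DMSO (adjusted p = 0.00245) and 3.73 with TPL (adjusted p = 0.000895). PAPPA had 0.28 and 0.46 FPKM (NT), 0.82 and 0.64 (NT + TPL), 3.62 and 3.14 (TAM) and 11.2 and 10.2 (TAM + TPL) and changed by 3.20 (adjusted p = 0.000844) with DMSO, and the reads of the partners cannot be told apart here.

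HIF1A-AS2 was higher in TAM than in NT cells (log2 fold change of 1.78 with an SE of 0.17, adjusted p = 0.00155), as was HIF1A (log2 fold change of 1.74 with an SE of 0.30, adjusted p = 0.0172), with no overlap of the groups in the values given above. SLCO4A1-AS1, opposite the gene of an organic anion transporter, had 2.07 and 1.38 FPKM (NT), 4.73 and 2.31 (NT + TPL), 10.1 and 8.96 (TAM) and 21.3 and 20.1 (TAM + TPL) (log2 fold change of 2.48 with an SE of 0.37, adjusted p = 0.01 with DMSO). SLCO4A1 had 5.7 and 4.83 FPKM (NT), 14.3 and 12.5 (NT + TPL), 46.7 and 39.8 (TAM) and 80.3 and 87 (TAM + TPL) and was higher in TAM cells by 3.05 (adjusted p = 0.000158). FAM83A-AS1 had 3.5 and 2.34 FPKM (NT), 0.79 and 1.14 (NT + TPL), 14 and 16 (TAM) and 2.64 and 3.06 (TAM + TPL) (log2 fold change of 2.37 with an SE of 0.36, adjusted p = 0.0106 with DMSO), and FAM83A was higher by 2.64 (adjusted p = 0.00227). In these pairs the partners were higher in TAM cells together.

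PRC1-AS1, opposite the gene of the cytokinesis protein PRC1, had 1.62 and 1.79 FPKM (NT), 5.14 and 2.95 (NT + TPL), 8.26 and 7.72 (TAM) and 4.83 and 4.59 (TAM + TPL). It was higher in TAM cells with DMSO (log2 fold change of 2.24 with an SE of 0.34, adjusted p = 0.0106), and so was PRC1 (2.23, adjusted p = 0.000972). TROAP-AS1 went against its sense gene. It had 25.8 and 27.8 FPKM (NT), 19.5 and 18.3 (NT + TPL), 17 and 16.1 (TAM) and 9.38 and 10.8 (TAM + TPL) and was lower in TAM cells (log2 fold change of -0.68 with an SE of 0.13, adjusted p = 0.025), while TROAP, for a spindle-associated protein, went from 3.39 and 3.48 FPKM in NT to 10.3 and 11.6 in TAM cells (2.45, adjusted p = 0.00153). The other 3 members that were higher were THUMPD3-AS1 (adjusted p = 0.0497, gene ID entry), NR2F1-AS1 (0.029) and SNCAIP-AS3 (0.044). For the 8 members that were higher, the sense gene passed as higher in 6 and as lower in 0. Of the 8 named calls in this comparison, those of HIF1A-AS2 and PAPPA-AS1 held in each refit without 1 library.

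A difference between the states in the response to TPL was not found by edgeR for any member. The test of the difference between the TPL effects gave 0 members at an adjusted p of 0.05 and 0 strict calls, against 0.165% and 0% of all genes, while 18 members had an unadjusted p under 0.05 and DESeq2 gave 4 at an adjusted p of 0.05. The smallest unadjusted p were those of SH3BP5-AS1 (difference 1.33 on the log2 scale, SE 0.28, adjusted p = 0.172), PRC1-AS1 (-2.04, SE 0.46, adjusted p = 0.207) and C10orf95-AS1 (1.64, SE 0.37, adjusted p = 0.207). The TPL libraries of SH3BP5-AS1 and C10orf95-AS1 were above the DMSO libraries in both states, while those of PRC1-AS1 were above them in NT and below them in TAM cells.

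Related noncoding genes were counted from lists by symbol. Of 112 divergent transcripts tested (symbols ending in -DT), 30 rose and 1 fell in NT cells (26.8% and 0.893%) and 32 rose and 1 fell in TAM cells (28.6% and 0.893%), with medians of 0.75 and 0.91. Over all genes 17.2% rose and 19.8% fell in NT cells and 14.3% rose and 18.6% fell in TAM cells. Of 98 antisense genes below 1 FPKM that were tested, 11 and 8 rose and 0 fell, with medians of 0.57 and 0.74. Their rises were 11.2% and 8.16%, below the shares of all genes. Of 13 intronic transcripts (-IT) 1 and 2 rose and 1 and 0 fell, and of 7 overlapping transcripts (-OT) 0 and 2 rose and 0 fell. The medians of the -DT transcripts and of the lower antisense genes were above those of all genes, while the share that rose was above that of all genes in the former and below it in the latter.

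Genes of the nuclear exosome, the complex that degrades many antisense and divergent transcripts, moved down with TPL. Of 18 subunits and cofactors, 9 fell and 0 rose in NT cells, and 12 fell and 1 rose in TAM cells, with median log2 fold changes of -0.91 and -0.92. The falls were 50% and 66.7% of the list, against 19.8% and 18.6% of all genes and 28.5% and 28.7% of the genes of at least 10 FPKM. EXOSC10, a catalytic subunit, changed by -0.97 with an SE of 0.13 in NT cells (adjusted p = 0.00193) and by -1.11 with an SE of 0.13 in TAM cells (adjusted p = 0.00135). MTREX, the helicase of its nuclear adaptor complexes, changed by -1.16 (adjusted p = 0.00361) and -0.96 (adjusted p = 0.00789). PABPN1, a nuclear poly-A binding protein that helps target RNAs for decay, was the 1 that rose, by 0.76 in TAM cells (adjusted p = 0.018). DIS3, its other catalytic subunit, gave -0.03 and 0.00 and passed in neither state. Whether this had a part in the antisense values was not tested.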

How the data were processed

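RNA-Seq of poly-A RNA was made from 8 libraries of MCF10A-Er-Src cells, 2 for each of 4 groups. Per the study's methods, the authors aligned reads to reference transcripts with Bowtie2 and estimated gene levels with RSEM. The deposited files give expected counts, which need not be whole, and FPKM per gene, and a gene without reads is left out and was taken as 0. The 4 deposited RNAPII peak lists, made by the authors on build hg19 with MACS, hold 1 list per condition of peaks that contain a transcription start, with peak names and no score, and were used for positions only. The submitters' processing notes also name BWA, HOMER and MACS 1.4.2. The depth of the peak data is not given in the lists.

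Rounded expected counts of all genes were tested with edgeR 4.0.16 (quasi-likelihood, TMM scaling, filterByExpr, R 4.3.3), with the 4 groups in 1 fit and Benjamini-Hochberg adjustment over 16948 genes. Ratios of antisense to sense genes were tested with limma 3.58.1 on differences of log2 CPM computed with a prior count of 2. Calls used an adjusted p of 0.001 with a log2 fold change of 1.2, after the study's methods, or an adjusted p of 0.05 alone, for which "rose" and "fell" are used. DESeq2 1.42.0, other scalings, filters, FPKM-based tests and refits without each library were alternatives, and the edgeR and limma steps were tested on simulated data. There 200 genes were changed by 2 on the log2 scale. The strict call found 25 of them for TPL in NT and 21 for TPL in TAM cells, and 116 and 109 passed at 0.05. Of unchanged genes 0 met the strict call, and 8 and 5 passed at 0.05. Of 86 changed pairs limma found 5 and 13, so these tests can miss many changes. Positions came from GENCODE release 44 on build 37 by symbol, and sequences from RefSeq on GRCh38.p14. Folds against groups at 0 are bounds against 3 counts per library, and groups with few reads have 95% exact counting intervals, which cover counting error only.

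The members, lists and tests were chosen with earlier results of these data known. Members named with values were the 10 highest, the strict calls, the 5 largest rises and falls per comparison, the 3 smallest p for the difference between the TPL effects, the antisense genes picked by the study, and those next to the FPKM threshold. Members named beyond these (the pairs moving in opposite directions, the pairs named by their ratio, the printed divergent pairs, NR2F1-AS1 and SNCAIP-AS3) were chosen after their values were seen. Another 97 antisense entries listed by RefSeq accession were not members. Some results that the naming rule covers are not reported here.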

Additional observations from a re-analysis of the deposited data

Results flagged for a closer look

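Both libraries of PRC1-AS1 moved up with TPL in NT cells and both moved down in TAM cells. The TPL effect in TAM minus that in NT cells was -2.04 on the log2 scale (SE 0.46), and the edgeR test of the difference gave an adjusted p of 0.207. The difference did not pass.

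A signal was also present in antisense entries listed by RefSeq accession, which the comparisons do not use. Of 97 such entries, 40 had a mean of at least 1 FPKM. The highest was BFSP2-AS1, with 41 and 33 FPKM (NT), 53.6 and 89.6 (NT + TPL), 32.2 and 34.2 (TAM) and 68.1 and 59 (TAM + TPL). CLEC12A-AS1 had 22.9 and 18.1 FPKM (NT), 53 and 68.9 (NT + TPL), 17.8 and 16.7 (TAM) and 60.1 and 55.3 (TAM + TPL). PCSK6-AS1 had 30.6 and 28.8 FPKM (NT), 32 and 62 (NT + TPL), 25.8 and 32.7 (TAM) and 54 and 38 (TAM + TPL). The TPL libraries of the first 2 lay above the DMSO libraries in both states.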

How the results depend on the processing

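Of 3486 values of single members under the alternatives, 3222 kept their side of the threshold, 186 lost a call, 78 gained one and 0 reversed.

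The strict calls with TPL (3 in NT, 5 in TAM cells) became 45 and 48 with DESeq2, 7 and 10 with limma on log2(FPKM + 1), 76 and 80 with an adjusted p of 0.05 and the same fold, and 0 and 1 in a fit over only the 2 groups compared. In NT cells limma on log2(FPKM + 0.1) gave 5, and in TAM cells GAPDH scaling gave 3. In TAM against NT cells with DMSO (0) DESeq2 gave 5, no filter on low counts 1 and the 0.05 threshold 9. With TPL (1) DESeq2 gave 5, each limma fit 2, the 0.05 threshold 8, and GAPDH scaling and the fit over 2 groups 0.

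At an adjusted p of 0.05, the 85 rises in NT cells became 42 with GAPDH scaling and 51 in the fit over 2 groups, which gave 12 falls against 23. The 94 rises in TAM cells became 62 with GAPDH scaling. In TAM against NT cells with DMSO (10) DESeq2 gave 17, GAPDH scaling 27, and limma 19 and 22. With TPL (9) DESeq2 gave 16 and limma 19 and 17. For the difference between the TPL effects (0) DESeq2 gave 4.

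Leaving out 1 library at a time gave 0 to 2 strict calls in NT cells, 0 to 7 in TAM cells, 0 for transformation with DMSO and 0 for it with TPL. At 0.05 it gave 34 to 100 rises and 8 to 19 falls in NT cells, the lowest without NT replicate 2, and fewer by over 1.5 times also without NT replicate 1 (45 and 15) and NT + TPL replicate 2 (52 and 14). In TAM cells it gave 27 to 120 rises and 6 to 18 falls, with 36 and 8 without TAM replicate 1, 30 and 8 without TAM replicate 2, 27 and 6 without TAM + TPL replicate 1, and 46 and 9 without TAM + TPL replicate 2. In TAM against NT cells it gave 2 to 13 members with DMSO, lower without either NT, TAM or TAM + TPL library, and 3 to 8 with TPL, with 3 without either TAM + TPL library. Pairs with a higher ratio numbered 50 to 90 in NT cells (50 without NT replicate 2, 60 without NT + TPL replicate 2) and 41 to 93 in TAM cells, under 56 when any 1 of the 4 TAM and TAM + TPL libraries was left out, and pairs with a lower ratio 15 to 23 and 9 to 23. Fewer libraries leave fewer residual degrees of freedom. Of the named members' calls at 0.05, 9 of 27 with TPL in NT cells, 9 of 23 in TAM cells, 2 of 8 for TAM against NT with DMSO and 1 of 5 with TPL held in every such refit.

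Replicate numbers were not shown to pair the libraries, since deviations of same-numbered libraries correlated at -0.135 to 0.050 across genes. With the replicate block 0 strict calls remained with TPL in either state and 0 in TAM against NT cells with TPL, with 67 rises and 19 falls in NT and 69 and 13 in TAM cells at 0.05, and 5 members in TAM against NT cells with DMSO. With the NT + TPL numbers crossed, chosen after seeing the data, NT cells had 0 strict calls, 82 rises and 21 falls.

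Antisense starts in peaks numbered 159, 115, 130 and 119 with the main start alone and 204, 159, 195 and 162 within 500 bases of a peak.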
